A study of Bos taurus with 8 samples.

Results

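The 74 genes described here encode chemokines, interleukins, a few cytokines of the same families and the receptors for these proteins, out of 18871 genes counted in clones of bovine preadipocytes. They were chosen by symbol alone: CCL, CXCL, CCR, CXCR, ACKR or IL followed by a number, with the usual suffixes of receptor subunits, together with *CX3CL1*, *IL6ST*, *LIF*, *LIFR*, *OSMR* and the colony stimulating factors with *CSF1R*. By role they were 9 CC chemokines, 7 CXC and CX3C chemokines, 10 chemokine receptors, 2 atypical chemokine receptors, 9 genes of the IL-6 family, 5 of the IL-1 family, 11 of the common gamma chain cytokines and related receptors, 19 of the IL-10, IL-12 and IL-17 families and others, and 2 colony stimulating factors. The test took genes whose counts summed to 20 or more, which held for 73 of the 74. *CCL28* had fewer, with 16 counts in IMF4 and 1 in SF3, and was not tested. *CSF1R* was not in the table.

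RNA-seq was performed on 8 clones of preadipocytes, the cells that can become adipocytes, each grown from a single cell of the stromal vascular fraction, which is what remains of fat tissue once the adipocytes are removed. The IMF group held 4 clones from intramuscular fat, dissected out of the longissimus dorsi muscle, and the SF group held 4 clones from subcutaneous fat. All came from adult male Angus cross steers with no treatment or allele that differed between the groups, and each clone came from its own tissue sample, although which IMF and SF clones share a steer was not given and the labels and the methods differ on the number of steers. The authors chose clones that looked like fibroblasts, formed adipocytes readily and divided fast, so these are a selection of the cells in each depot. The sources differ on whether the RNA was taken from growing cells or after adipogenic induction.

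Counted reads ranged from 19654917 in IMF1 to 29308882 in IMF2. Levels are given as CPM, counts scaled to library sizes after TMM normalization, and levels of different members are compared only as TPM, for which counts are also divided by gene length. At these depths 3 counts corresponded to between 0.0981 and 0.165 CPM, a floor that covers counting error only.

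Chemokines are small secreted proteins that bind G protein-coupled receptors on leukocytes and other cells and direct their migration, and atypical chemokine receptors take up chemokines without signalling through G proteins. Interleukins and their relatives act through paired receptor chains, of which gp130 (*IL6ST*) is shared by the IL-6 family and the common gamma chain (*IL2RG*) by another family, and most of these chains signal through JAK kinases and STAT factors. In adipose tissue, stromal cells as well as leukocytes secrete such proteins, and *CCL2* and *IL6* are known products of preadipocytes and other stromal cells.

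The question of the comparison was how the clones of the 2 depots differ. *CCL2*, *CCL26*, *IL6*, *OSMR*, *IL3RA* and *IL7R* were higher in IMF, and *CCR7*, *CXCR6*, *IL10*, *IL11RA* and *IL9R* were lower. With edgeR these were 6 and 5 members past the threshold, which asked for an adjusted p under 0.05 (Benjamini-Hochberg) and a log2 fold change (IMF minus SF) of 1 or more in either direction, beside 4.78% of all 18339 genes tested that were higher and 4.04% that were lower. An adjusted p under 0.05 alone was reached by 17 of the 73, against 25.8% of all genes. At an unadjusted p under 0.05, 12 members were positive and 19 negative, where the shares of all genes were 20.2% and 17.8%. The same shares stand behind the counts by role and by pathway list below. All 4 IMF clones lay above all 4 SF clones for 11 members and below them for 11, where these shares were 18.0% and 14.1% of all genes. The p-values measure the difference against the spread between clones and take the clones as independent, which was not tested. Pairs of clones of a group were not equally alike, with a chi-square per gene between libraries of 45.4 for SF2 and SF3 and 98.7 to 126 for the other SF pairs, and of 57.9 for IMF2 and IMF4, 68.4 for IMF1 and IMF3 and 81.6 to 136 for the other IMF pairs. This measure grows with depth, and all its values were far above the 1 that counting alone would give. The members leaned to lower values in IMF, with a median log2 fold change of -0.34 over the 73 against -0.03 over all genes, and with 46 members (63.0%) negative against 52.3% of all genes. This lean was smaller with limma-voom and when blocked by clone number, each with a median of -0.17 and 40 of the 73 negative. Scaling by total counts alone moved the median of all genes to 0.12 and that of the members to -0.19, and under it 77.8% of the members past the threshold were higher against 54.5% with TMM. The 5 lower members became 13 with DESeq2, 8 with limma-voom and 2 with total counts alone, 1 without IMF3 or SF4, and 3 without IMF2, IMF4 or SF3. In these bulk libraries fewer cells of a type and less RNA per cell cannot be told apart.

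**Figure D1:**
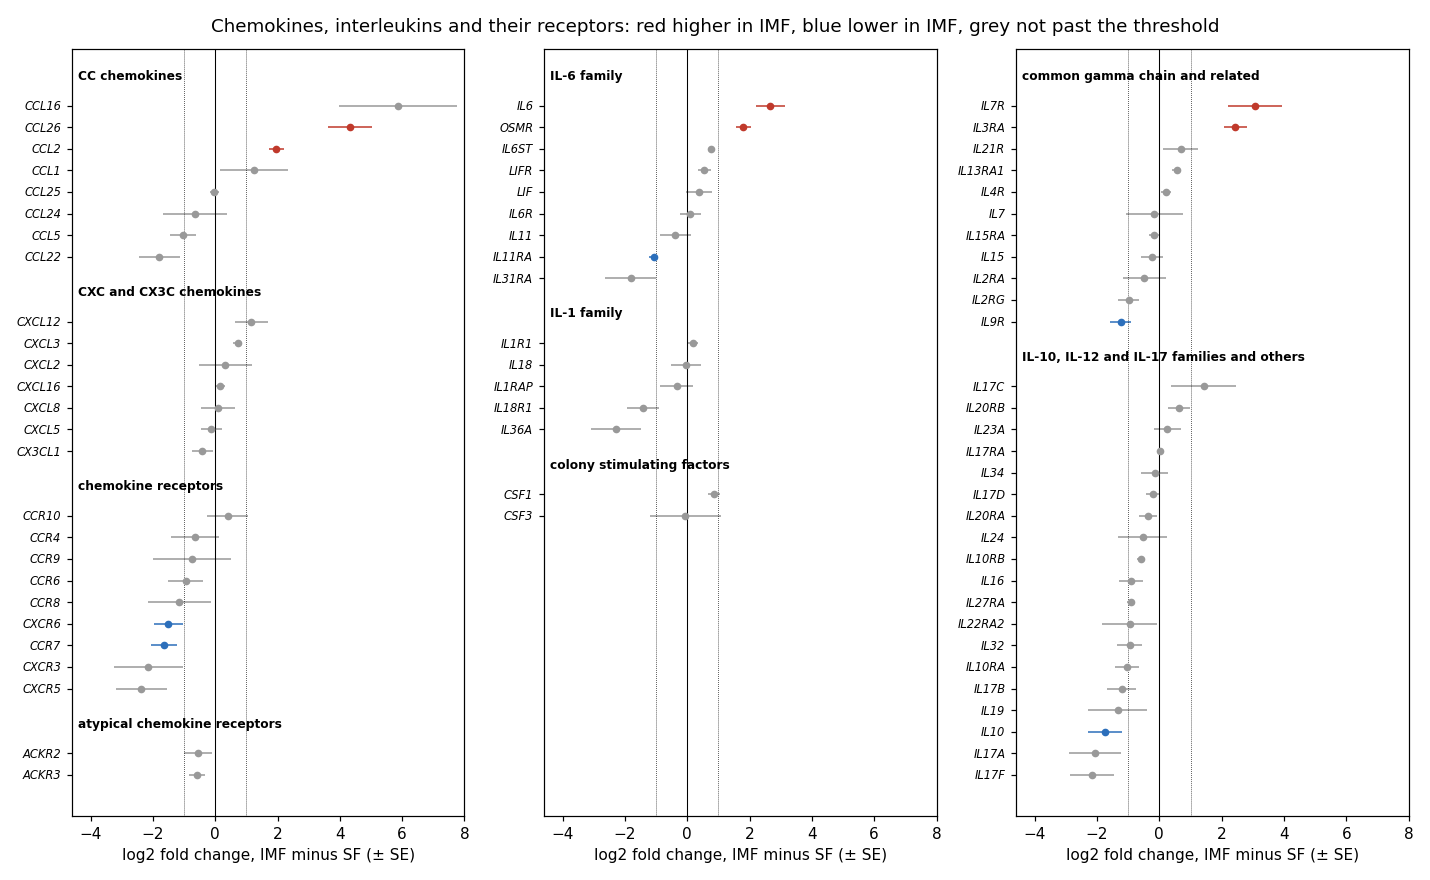
Log2 fold change (IMF minus SF, ± SE of the fit, 4 clones in each group) of 72 of the 73 tested members by role, with dotted lines at an absolute value of 1, red for the 6 members higher in IMF, blue for the 5 lower and grey for the rest. *CCL16* had 0 counts in all SF clones, so that its fitted value depends on the prior count.

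Markers of other cell types were looked at in the same libraries, and the gene said to lead a list is the one that added most CPM to its sum over the 8 clones, which also depends on gene length. Of 10 markers of fibroblasts and preadipocytes all were counted, and their sum was 32400 ± 664 CPM in IMF and 56500 ± 3180 CPM in SF (mean ± SD, n = 4), with *COL1A1* at 12400 and 30100 CPM the leading gene. Of the 10, *COL1A1* and *PPARG* were lower and 0 were higher past the threshold, and 4 had positive log2 fold changes, *PDGFRA* with 0.49 ± 0.12 (edgeR adjusted p = 0.0214). Of 5 adipocyte markers 3 were in the table, with sums of 13 ± 1.25 CPM in IMF and 4.23 ± 0.623 CPM in SF. *FABP4* held most of the IMF sum, at 9.64 CPM, and was at 0.178 CPM in SF, where *PLIN1* held most of it at 3.62 CPM. Of 9 skeletal muscle markers, led by *MYOD1*, all 9 were higher in IMF, with sums of 772, 754, 763 and 675 CPM in IMF clones 1 to 4 and 22.3, 2.05, 7.79 and 24.7 CPM in SF clones 1 to 4, and *MYOD1*, *MYOG* and *CHRNA1* were at 0 in all SF clones. Of 14 endothelial markers 13 were in the table, led by *SELP* (in each SF clone by *CLDN5*), and 12 were higher in IMF, with sums of 366, 371, 380 and 415 CPM against 38.2, 35.5, 27.6 and 38.1 CPM, and *KDR*, *SELE* and *EMCN* were at 0 in all SF clones. Markers of muscle, endothelium and fibroblasts thus stood together in each IMF clone at nearly equal levels from clone to clone, although each clone was grown from a single cell.

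Leukocyte markers differed in direction. The 5 general leukocyte markers in the table, led by *CORO1A*, of 8 listed, summed to 103, 66.2, 72.3 and 149 CPM in IMF clones 1 to 4 and to 227, 142, 140 and 233 CPM in SF clones 1 to 4, so that the groups overlapped. *PTPRC*, *LCP1*, *CORO1A* and *FERMT3* had negative log2 fold changes, and *FERMT3* passed the threshold (-1.05 ± 0.29, edgeR adjusted p = 0.0278). *LAPTM5* was positive (2.78 ± 0.95, edgeR adjusted p = 0.0642), with means of 5.47 CPM (IMF) and 0.812 CPM (SF). The 6 markers of T and NK cells in the table, of 11 listed and led by *CD3E*, summed to 26.1, 15.6, 11.2 and 32.3 CPM in IMF and to 54.8, 45.8, 49.2 and 71.9 CPM in SF. In this sum every IMF clone lay below every SF clone, and 3 of the 6 markers (*CD3E*, *GZMA* and *PRF1*) passed the threshold. *CD247* was positive (0.21 ± 0.33, edgeR adjusted p = 0.696), with overlapping groups, and all others of the 6 were negative. The 4 B cell markers, led by *CD79A*, summed to 6.01 ± 4.79 CPM (IMF) and 12.6 ± 5.36 CPM (SF), and the 7 macrophage markers in the table, of 12 listed and led by *SPI1*, to 56.0 ± 5.27 and 53.5 ± 13.6 CPM. Within these near sums the macrophage markers went opposite ways. *MRC1*, the mannose receptor, had means of 22.6 CPM (IMF) and 0.279 CPM (SF) and a log2 fold change of 6.31 ± 0.16 (edgeR adjusted p = 4.08e-07). *CD14* was also higher (1.48 ± 0.24, edgeR adjusted p = 0.0026) and *SPI1* was lower (-1.17 ± 0.29, edgeR adjusted p = 0.0186). *HDC*, the 1 of 4 mast cell markers in the table, had means of 5.92 ± 7.87 CPM (IMF) and 20.1 ± 8.57 CPM (SF), and 0 of 5 neutrophil markers were in the table. The part of other cell types in the values of the chemokine and interleukin genes was not tested.

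Among the CC chemokines, 2 of the 8 tested were higher in IMF and 0 were lower with edgeR, where 3 had a positive and 2 a negative change at an unadjusted p under 0.05. DESeq2 added *CCL16* to the higher and *CCL22* to the lower members, and limma-voom added neither. *CCL2* (chromosome 19, 15903398 to 15905265, in the RefSeq annotation of ARS-UCD2.0), which attracts monocytes, was counted at 28.6, 27.0, 25.0 and 23.0 CPM in IMF clones 1 to 4 and at 4.72, 6.46, 10.3 and 5.01 CPM in SF clones 1 to 4. The lowest IMF clone lay above the highest SF clone, SF3. The log2 fold change was 1.96 ± 0.24 (SE; edgeR adjusted p = 0.00075). *CCL26*, an eosinophil attractant that binds CCR3 (chromosome 25, 34038495 to 34043066), was at 8.2, 7.69, 5.12 and 5.95 CPM in IMF and at 0.77, 0.45, 0.122 and 0 CPM in SF. It was near or under the floor in SF3 and SF4, with 3 and 0 counts, and clearly counted in all IMF clones. Its log2 fold change was 4.32 ± 0.71 (edgeR adjusted p = 0.00293). The neighbouring *CCL24*, another ligand of CCR3 (chromosome 25, 34065907 to 34069221), had means of 0.307 ± 0.377 CPM (IMF) and 0.476 ± 0.215 CPM (SF), and the groups overlapped. Of the remaining CC chemokines, *CCL16* had 4, 16, 0 and 12 counts in IMF and 0 in all SF clones, and *CCL5*, a T cell and monocyte attractant, lay lower in every IMF clone (3.08 to 14.6 CPM) than in any SF clone (16.4 to 29.0 CPM) without passing the test (log2 fold change -1.03 ± 0.42, edgeR adjusted p = 0.114). The median log2 fold change of the group was 0.61, and 0.55 with *CCL16* set against 3 counts in each SF clone.

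Of the 7 CXC and CX3C chemokines none passed the threshold with edgeR, DESeq2 or limma-voom, and 1 had a positive change at an unadjusted p under 0.05 with edgeR. *CXCL5*, a neutrophil attractant, was the most abundant chemokine in all clones, at 265, 222, 241 and 202 TPM in IMF clones 1 to 4 and 445, 143, 199 and 195 TPM in SF clones 1 to 4. SF1 was the highest of all clones and SF2 the lowest, and the log2 fold change of -0.12 ± 0.33 (edgeR adjusted p = 0.836) turned to 0.34 without SF1 and to 0.04 with total counts alone. *CXCL3*, of the same subfamily, was at 13.1, 12, 12.7 and 12.4 CPM in IMF and at 6.01, 6.96, 7.91 and 9.59 CPM in SF. The groups did not overlap, and the log2 fold change of 0.72 ± 0.14 had an edgeR adjusted p of 0.00764. *CXCL2* and *CXCL3* are close paralogs, so that reads may have been divided between them and their counts are uncertain. *CXCL16*, the ligand of CXCR6, ranged from 43.4 to 48.4 CPM in IMF and from 32.4 to 51.2 CPM in SF, with overlapping groups and a log2 fold change of 0.17 ± 0.14.

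*CXCL12*, the ligand of CXCR4 and ACKR3 that retains stem and immune cells in stroma, was looked at after its values had been seen. It was at 140, 141, 145 and 146 CPM in IMF and at 11.2, 61.7, 103 and 79.9 CPM in SF. Each IMF clone lay above each SF clone, and SF1 lay far below the other SF clones. Its log2 fold change was 1.16 ± 0.52 (edgeR adjusted p = 0.142), and without SF1 it was smaller but more precise, at 0.81 with an edgeR adjusted p of 0.00849 (0.00849 to 0.228 over the clones left out in turn).

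In TPM, *CXCL5* made up 42.7% to 48.8% of all chemokine ligand transcripts in the IMF clones, 66.1% in SF1 and 41.4% to 46.3% in the other SF clones. *CCL2* made up 9.89% to 11.8% in IMF and 1.47% to 5.4% in SF. *CCL5* took 1.54% to 6.51% in IMF and 6.11% to 14.6% in SF, with overlapping ranges, and *CXCL16* took 14.2% to 16.5% and 12.5% to 17.2%.

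**Figure D2:**
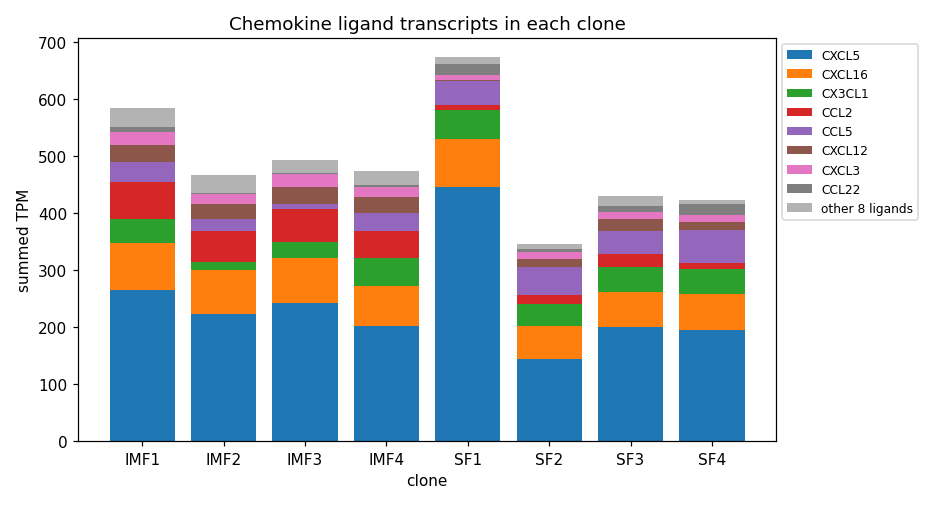
Summed TPM of the 16 chemokine ligands in each of the 8 clones, with the 8 most abundant in colours and the other 8 in light grey. *CXCL5* was the largest share in each clone, and the *CCL2* segment was larger in each IMF clone (46.8 to 65.3 TPM) than in any SF clone (9.47 to 23.2 TPM).

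The chemokine receptors were low, with 23.9, 5.71, 6.78 and 20.8 TPM for all 10 together in IMF clones 1 to 4 and 25.8, 23.2, 19.4 and 30.4 TPM in SF clones 1 to 4. Of the 10, 2 were lower in IMF and 0 were higher with edgeR, where 3 had a negative and 0 a positive change at an unadjusted p under 0.05. DESeq2 and limma-voom each had 3 lower and 0 higher, with *CXCR5*, which guides B cells to follicles, as the third. The log2 fold change was negative for 9 of the 10 under each scaling tried, and its median with TMM was -1.10. *CCR10*, a receptor for CCL27 and CCL28, was the exception at 0.40 ± 0.65. It was at 9.23 CPM in IMF4 and between 1.05 and 3.79 CPM in the other IMF clones, and without IMF4 all 10 receptors were negative. *CCR7* (chromosome 19, 40775261 to 40786420), which guides dendritic and T cells to lymph nodes, was at 2.49, 2.49, 0.997 and 1.24 CPM in IMF and at 8.42, 3.50, 3.65 and 7.16 CPM in SF. All IMF clones lay below all SF clones, and SF1 and SF4 were the highest. Its log2 fold change was -1.65 ± 0.42 (edgeR adjusted p = 0.0218), and the adjusted p was 0.0517 without IMF3, 0.0593 without IMF4 and 0.0531 without SF4 (0.0206 to 0.0593 over the clones left out in turn).

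*CXCR6* (chromosome 22, 53373617 to 53378958), a receptor of memory T and NK cells, was at 8.49, 2.16, 1.81 and 5.14 CPM in IMF and at 10.6, 13.1, 9.78 and 16.0 CPM in SF. The groups did not overlap, but IMF1 came close to SF3. The log2 fold change was -1.50 ± 0.47 (edgeR adjusted p = 0.0471), and the adjusted p was above 0.05 without any clone other than IMF1 (0.0116 to 0.105 over the clones left out in turn), with total counts alone (0.0552) and with robust dispersion (0.0508). *CXCR6* overlaps *FYCO1* in the RefSeq annotation, and the sources differ on whether the libraries keep the strand. Reads may therefore be shared by the pair, which was not tested, and the counts of *CXCR6* are uncertain. *CCR7*, *CXCR6* and the summed markers of T and NK cells were each lower in every IMF clone than in any SF clone. Among the IMF clones *CXCR6* and this sum were both higher in IMF1 and IMF4 than in IMF2 and IMF3, which did not hold for *CCR7*. Among the SF clones *CCR7* and this sum were both higher in SF1 and SF4 than in SF2 and SF3, which did not hold for *CXCR6*. The part of T and NK cells in these values was not tested.

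Counts of the chemokine receptors were even numbers more often than those of other genes. All 8 counts were even for 5 of the 10 receptors, *CCR7* among them, and 85.0% of their single counts were even, against 64.4% for all members and 57.8% for all genes tested. Among all members 12 had only even counts, as had 1578 of the 18339 genes. How reads were counted to give this was not tested. The counts, floors and p-values of such genes, *CCR7*, *IL31RA* and *CX3CR1* among them, may therefore rest on fewer fragments than the counts show. Without the genes whose counts were all even, chosen after seeing the data, 6 members were higher and 4 lower.

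The atypical receptors differed in level. *ACKR3*, which takes up CXCL12 and CXCL11, had the highest mean TPM of all members over the 8 clones, although *CXCL5* was above it in SF1, at 320, 299, 314 and 285 TPM in IMF and 218, 645, 473 and 477 TPM in SF. SF1 lay below all IMF clones and the other SF clones above them. *ACKR3* had a log2 fold change of -0.59 ± 0.26 (edgeR adjusted p = 0.142), and -0.81 with an adjusted p of 0.00116 without SF1 (0.00116 to 0.299 over the clones left out in turn). *ACKR2*, which takes up CCL2 and other inflammatory CC chemokines, was at 8.56, 2.50, 8.14 and 2.01 TPM in IMF and 10.1, 6.29, 6.60 and 6.36 TPM in SF. IMF2 and IMF4 were low and IMF1 and IMF3 lay within the SF range. Its counts are uncertain, since *CCDC13* and *HIGD1A* overlap it in the annotation.

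In the IL-6 family 2 of 9 members were higher in IMF and 1 was lower, and the median log2 fold change was 0.38. *IL6* itself (chromosome 4, 31454776 to 31459143), which signals through gp130, was at 2.16, 1.18, 0.997 and 1.05 CPM in IMF and at 0.308, 0.20, 0.203 and 0.11 CPM in SF. The SF values stood on 6, 4, 5 and 2 counts, and no SF clone reached the lowest IMF clone. IMF minus SF, the log2 fold change was 2.67 ± 0.46 (edgeR adjusted p = 0.00392). *OSMR* (chromosome 20, 35503114 to 35571171), the chain that pairs with gp130 to bind oncostatin M, was at 74.5, 78.4, 70.8 and 77.0 CPM in IMF and at 15.2, 34.3, 19.0 and 17.5 CPM in SF. The IMF clones were close together, and SF2 was the highest SF clone at under the lowest IMF value. This was a log2 fold change of 1.80 ± 0.24 (edgeR adjusted p = 0.00102).

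gp130 itself moved in the same direction by less. *IL6ST* (chromosome 20, 23191788 to 23253568) was at 119, 130, 126 and 125 CPM in IMF and at 72.4, 75.1, 78.8 and 66.5 CPM in SF, so that both groups were narrow and apart. Its log2 fold change was 0.77 ± 0.07 (edgeR adjusted p = 0.000216), under the fold threshold. *IL11RA* (chromosome 8, 76017709 to 76027361), which pairs with gp130 to bind IL-11, went the other way, at 7.57, 6.53, 8.68 and 6.61 TPM in IMF and 12.2, 22.1, 15.6 and 12.2 TPM in SF. The groups did not overlap, and SF2 was the highest. Its log2 fold change of -1.08 ± 0.15 (edgeR adjusted p = 0.00143) lay near the fold threshold, and it was -0.92 without SF2 and -0.94 with total counts alone, both under it.

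The partners of these chains did not pass the test. *IL6R*, the chain that binds IL-6, had means of 1.65 ± 0.141 CPM (IMF) and 1.55 ± 0.641 CPM (SF), and *IL11* had 0.852 ± 0.297 and 1.11 ± 0.662 CPM. *IL31RA*, which pairs with the OSMR chain to bind IL-31, was at 0.384, 0.392, 0.725 and 0 CPM in IMF and 1.23, 0.801, 1.06 and 2.31 CPM in SF. Every IMF clone lay below every SF clone, with a log2 fold change of -1.82 ± 0.81 (edgeR adjusted p = 0.135). *LIF* and *LIFR* overlapped between the groups, with log2 fold changes of 0.38 ± 0.42 and 0.55 ± 0.21.

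In the IL-1 family 0 of 5 members passed with edgeR and limma-voom, 2 were lower with DESeq2 (*IL18R1* and *IL36A*), and 2 had a negative change at an unadjusted p under 0.05 with edgeR. *IL18*, which induces interferon gamma, had the highest mean TPM of them, at 33.2, 37.4, 35.4 and 30 TPM in IMF and 64.0, 16.2, 14.0 and 41.1 TPM in SF. The SF clones stood on both sides of the IMF clones, and the log2 fold change of -0.05 ± 0.48 has no stable sign. The receptor chain *IL18R1* (chromosome 11, 7165279 to 7194967), looked at after its values had been seen, was at 52.6, 56.6, 56.0 and 53.6 CPM in IMF and 33.1, 268, 135 and 148 CPM in SF. SF1 lay below the IMF clones and the other SF clones above them. Its log2 fold change of -1.42 ± 0.50 (edgeR adjusted p = 0.0688) became -1.75 without SF1, with an adjusted p of 0.00139 (0.00139 to 0.164 over the clones left out in turn). *IL1RL1*, the receptor for IL-33, overlaps *IL18R1* in the annotation, and it too was lowest in SF1 and highest in SF2, at 56.8, 63.3, 59.9 and 60.4 CPM in IMF and 5.80, 212, 102 and 189 CPM in SF. Sharing of reads by the overlapping pair was not tested.

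Among the common gamma chain cytokines and related receptors, 2 of 11 were higher in IMF and 1 was lower, and the median log2 fold change was -0.16. *IL7R* (chromosome 20, 38298529 to 38338605), the receptor for IL-7 on lymphocytes and their precursors, had 37, 71, 35 and 30 counts in IMF and 2, 2, 0 and 12 counts in SF, or 1.78, 2.32, 1.59 and 1.43 CPM against 0.103, 0.10, 0 and 0.661 CPM. The groups were apart, and SF4 held most of the SF counts. A log2 fold change of 3.07 ± 0.87 was fitted (edgeR adjusted p = 0.0328), and the adjusted p was above 0.05 without any clone other than SF3 or SF4 (0.00411 to 0.078 over the clones left out in turn) and with the clone number as a block (0.0565). Without SF4 the log2 fold change was 4.68. *IL3RA*, the chain that binds IL-3, was at 1.44, 1.31, 1.63 and 1.67 CPM in IMF and 0.359, 0.20, 0.162 and 0.386 CPM in SF. Both groups were narrow and apart although SF rested on 4 to 7 counts per clone, and the log2 fold change was 2.44 ± 0.38 (edgeR adjusted p = 0.00244).

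*IL9R* (chromosome 25, 95314 to 115274), the receptor chain for the mast cell and T cell cytokine IL-9, was at 0.672, 0.883, 0.408 and 0.571 CPM in IMF and 1.28, 1.60, 1.30 and 1.87 CPM in SF. The groups did not overlap, on 9 to 27 counts per IMF clone and 25 to 34 per SF clone. *IL9R* had a log2 fold change of -1.24 ± 0.33 (edgeR adjusted p = 0.0267), and the adjusted p was above 0.05 without IMF1, IMF3, IMF4, SF2 or SF4 (0.0258 to 0.0707 over the clones left out in turn) and with the clone number as a block (0.0691). The common gamma chain itself, *IL2RG*, was at 11.5, 12.8, 6.80 and 18.9 CPM in IMF and 27.5, 16.5, 17.9 and 37.4 CPM in SF. IMF4 lay above SF2 and SF3, and the log2 fold change was -0.99 ± 0.35 (edgeR adjusted p = 0.0713). It passed the threshold without IMF4, at -1.26 with an adjusted p of 0.0417 (0.0417 to 0.172 over the clones left out in turn), and with the clone number as a block (adjusted p = 0.0197). *IL7* was at 1.01, 1.44, 1.59 and 1.86 CPM in IMF and 0.103, 5.21, 0.771 and 0.496 CPM in SF. SF2 lay above all IMF clones and the other SF clones below them, and without SF2 the log2 fold change of -0.16 ± 0.92 became 1.66 (edgeR adjusted p = 0.0935, and 0.0935 to 0.994 over the clones left out in turn). *IL13RA1*, which binds IL-13 and pairs with IL-4R, had the highest mean TPM of this group and stood at 139, 148, 128 and 136 CPM in IMF against 73.6, 118, 91.7 and 92.3 CPM in SF. The groups were apart by a log2 fold change of 0.55 ± 0.14 (edgeR adjusted p = 0.0189), and the adjusted p was 0.0563 without IMF2 (0.00423 to 0.0563 over the clones left out in turn).

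In the IL-10, IL-12 and IL-17 families and other interleukins, 1 of 19 members was lower in IMF and 0 were higher with edgeR, where 9 had a negative and 0 a positive change at an unadjusted p under 0.05. DESeq2 had 5 lower and limma-voom 3, both with 0 higher. The median log2 fold change was -0.90, and 15 of the 19 were negative. *IL10* (chromosome 16, 4551373 to 4555309), an anti-inflammatory cytokine of leukocytes, had 12, 6, 4 and 15 counts in IMF and 20, 38, 25 and 30 in SF, or 0.576, 0.196, 0.181 and 0.714 CPM against 1.03, 1.90, 1.01 and 1.65 CPM. All IMF clones lay below all SF clones at these low counts. *IL10* had a log2 fold change of -1.75 ± 0.54 (edgeR adjusted p = 0.0435), and the adjusted p was above 0.05 without any clone other than IMF4 or SF1 (0.0345 to 0.105 over the clones left out in turn), with total counts alone (0.0557) and with the clone number as a block (0.0759). A lncRNA gene overlaps *IL10* in the annotation.

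Of the receptor chains of IL-10, *IL10RB*, which is shared with the IL-22 and interferon lambda receptors, was at 14.1, 13.5, 13.4 and 12.8 CPM in IMF and 18.4, 23.1, 22.8 and 16.0 CPM in SF. The groups were apart by a log2 fold change of -0.58 ± 0.13 (edgeR adjusted p = 0.0108), with an adjusted p of 0.0823 under total counts alone (0.000252 to 0.0823 over the alternatives that test against no change). *IL10RA*, the chain that binds IL-10, was at 4.03, 1.90, 2.27 and 2.38 CPM in IMF and 8.11, 2.90, 3.73 and 7.11 CPM in SF. IMF1 lay above SF2 and SF3, and the log2 fold change was -1.05 ± 0.39 (edgeR adjusted p = 0.0809), past the threshold with DESeq2 (adjusted p = 0.0394) and without SF2 (adjusted p = 0.0395, and 0.0395 to 0.173 over the clones left out in turn). *IL27RA* (chromosome 7, 11637289 to 11665060), which pairs with gp130 to bind IL-27, was at 29.8, 29.8, 26.9 and 27.0 CPM in IMF and 50.9, 45.5, 54.6 and 64.5 CPM in SF. The groups were narrow and apart, and the log2 fold change was -0.92 ± 0.11 (edgeR adjusted p = 0.000635), just short of the fold threshold. *PALM3* overlaps *IL27RA* in the annotation, so that its counts are uncertain.

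Of the other members of this group, *IL20RA*, a chain of the receptors for IL-19, IL-20 and IL-24, had the highest TPM, at 119, 50.8, 150 and 59.7 TPM in IMF and 130, 114, 109 and 113 TPM in SF. IMF2 and IMF4 were low, as they were for *ACKR2*, and the SF clones were close together. *IL17A* and *IL17F*, neighbours on chromosome 23, had log2 fold changes of -2.07 ± 0.83 and -2.16 ± 0.70 (edgeR adjusted p = 0.104 and 0.0536), with overlapping groups. Both passed the threshold as lower with DESeq2 and in the fit blocked by clone number, and *IL17F* also with limma-voom and without IMF1 or SF2.

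**Figure D3:**
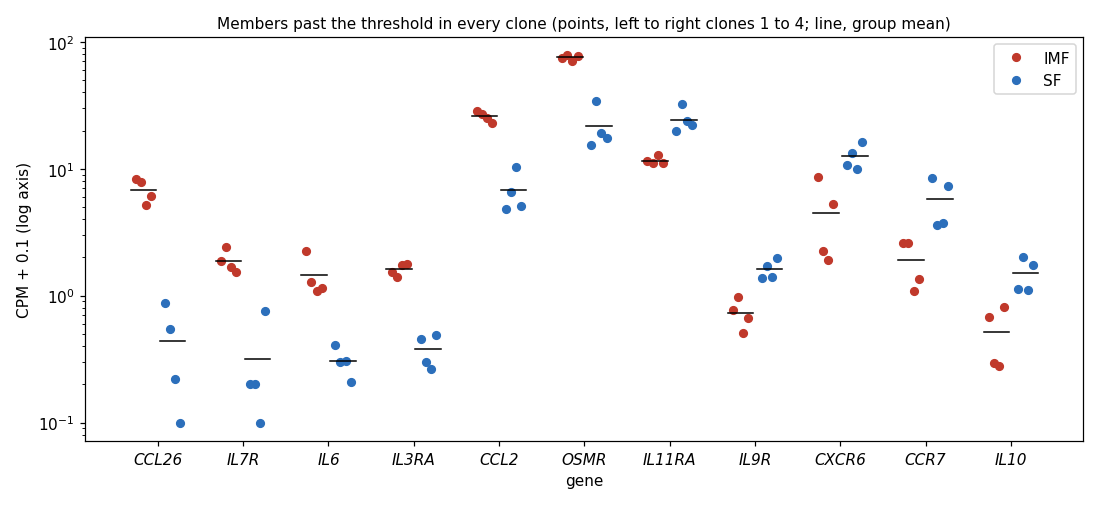
CPM + 0.1 on a log axis of the 11 members past the threshold in each of the 4 IMF (red) and 4 SF (blue) clones, with a line at each group mean. In each of the 11 genes the groups do not overlap, and *IL6*, *IL3RA*, *IL7R*, *IL9R* and *IL10* stayed at or under 2.32 CPM in all clones.

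Of the colony stimulating factors, *CSF1*, which sustains macrophages, was among the most abundant members at 285, 253, 310 and 262 TPM in IMF and 109, 172, 127 and 191 TPM in SF. All IMF clones lay above all SF clones, and SF4 was the highest of the SF clones. *CSF1* had a log2 fold change of 0.85 ± 0.20 (edgeR adjusted p = 0.0157), and it passed the fold threshold without SF4, at 1.07, and with total counts alone, at 1.01. *CSF3* had at most 24 counts in any clone.

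Over the members pooled, the SF clones varied more than the IMF clones. The coefficient of variation was taken over members whose mean count reached 100 in IMF and in SF. Its median over these 33 was 6.7% in IMF and 30.5% in SF, against 6.6% and 13.4% over the 10948 genes of such depth. By role this did not hold throughout, with medians of 34.1% in IMF and 32.7% in SF for 4 CC chemokines, 32.5% and 31.9% for the 2 atypical receptors, and 69.2% and 41.1% for the 1 chemokine receptor of such depth. Without SF1 the median in SF was 21.3% for the members and 10.6% for all such genes, and without SF2, SF3 or SF4 it lay between 29.8% and 31.7% for the members. SF1 was the highest SF clone for 11 and the lowest for 13 of the 33 members, or outermost for 72.7%, where it was outermost for 64.1% of all such genes.

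Several members lie close to each other in the genome, in 16 groups of neighbours within 500 kb, of which 11 had log2 fold changes of the same sign and 5 had both signs. *IL10*, *IL19* and *IL24* stand together on chromosome 16 with log2 fold changes of -1.75, -1.34 and -0.54. *OSMR* and *LIFR* on chromosome 20 were both positive, at 1.80 and 0.55. Other neighbours differed in sign, such as *CCL26* (4.32) and *CCL24* (-0.64) or *IL6ST* (0.77) and *IL31RA* (-1.82).

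Genes downstream of these receptors were counted from lists of pathway genes outside the members. Of 11 JAK and STAT genes listed 9 were tested, of which none passed the threshold with edgeR, DESeq2 or limma-voom, with 2 positive and 2 negative at an unadjusted p under 0.05 with edgeR, and the median log2 fold change was -0.08. Of 8 SOCS genes, which encode feedback inhibitors of JAK signalling, 1 was higher in IMF and 0 were lower with each of these tools, and 2 were positive and 0 negative at an unadjusted p under 0.05 with edgeR. The higher gene was *SOCS3*, the inhibitor induced by IL-6 and its relatives, at 14.1, 14.3, 15.4 and 14.2 CPM in IMF and 3.90, 3.50, 4.50 and 3.80 CPM in SF. The groups were narrow and far apart, with a log2 fold change of 1.88 ± 0.11 (edgeR adjusted p = 1.39e-05).

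Of 23 genes listed for NF-kB, IL-1 and Toll-like receptor signalling 22 were tested, and 4 were higher in IMF and 0 were lower with edgeR, DESeq2 and limma-voom, where edgeR had 6 positive and 6 negative at an unadjusted p under 0.05. Without SF2, 3 were higher, *NFKBIZ* not among them, and *TNFAIP3* was lower. With all clones the list had a median of -0.03. They were the NF-kB inhibitor *NFKBIA* (1.20 ± 0.12, edgeR adjusted p = 0.000211), its relative *NFKBIZ* (1.14 ± 0.22, 0.00643), and the receptors *TLR2* (3.80 ± 0.38, 0.00026) and *TLR4* (1.53 ± 0.42, 0.0289). *TLR2* was at 5.04, 6.77, 5.53 and 5.04 CPM in IMF and 0.205, 0.701, 0.446 and 0.22 CPM in SF, with no overlap.

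Of 20 inflammatory target genes listed 13 were tested, and 4 were higher and 0 lower with edgeR and limma-voom, with 6 positive and 2 negative at an unadjusted p under 0.05 with edgeR. *PTGES* was lower with DESeq2 and without SF1. The pattern recognition protein *PTX3* was at 166, 145, 132 and 149 CPM in IMF and 0.103, 0.10, 0 and 1.10 CPM in SF. It was thus nearly absent from SF, with a log2 fold change of 8.92 ± 0.70 (edgeR adjusted p = 7.53e-05). The others were the transcription factor *CEBPD* (1.23 ± 0.19, edgeR adjusted p = 0.00209), the mitochondrial enzyme *SOD2* (1.20 ± 0.14, 0.000513) and the lipopolysaccharide co-receptor *CD14* (1.48 ± 0.24, 0.0026). Each of these 3 genes lay higher in all IMF clones than in any SF clone.

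Of 31 further genes listed for the interleukin and chemokine families 18 were tested, and 1 was higher and 1 lower with edgeR and DESeq2. At an unadjusted p under 0.05 edgeR had 2 positive and 1 negative. *CSF2RB* (log2 fold change 2.72 ± 1.09, edgeR adjusted p = 0.106) was also higher with limma-voom and without SF2. Without SF1, *IL1RL1* was also lower. *KITLG*, the ligand of KIT on mast and stem cells, had means of 8.48 ± 1.47 CPM (IMF) and 3.40 ± 0.864 CPM (SF), a log2 fold change of 1.32 ± 0.23 (edgeR adjusted p = 0.00373). *CX3CR1*, the receptor for CX3CL1, was at 1.15, 0.262, 0.816 and 0.761 CPM in IMF and 2.05, 2.60, 3.73 and 4.52 CPM in SF. All IMF clones lay below all SF clones, with a log2 fold change of -2.12 ± 0.45 (edgeR adjusted p = 0.0103), and all its counts were even. Muscle and endothelial markers were higher in the same IMF clones in which these pathway genes were higher, and their part was not tested.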

How the data were processed

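Paired-end reads of mRNA libraries were trimmed (Trimmomatic 0.39) and mapped to ARS-UCD2.0, by HISAT2 according to the methods and by STAR 2.7.11a according to the submitters' notes. The authors counted reads with featureCounts 2.0.2 and deposited raw counts per gene and clone, not normalized, with the gene length in bases. The annotation release was not given in the sources used here. The methods call the library non-stranded and the labels describe a strand-marking protocol, so reads of overlapping genes may be shared. The methods also name TPM, which the deposited whole numbers are not. The deposited group means and comparison columns (fold changes, p-values and calls) were not used.

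Groups came from the labels. The 18871 genes exclude 1 row that names no gene (0.0148% to 0.0209% of counts). The 18339 genes whose counts summed to 20 or more were tested in R 4.3.3 by edgeR 4.0.16 (quasi-likelihood, TMM, Benjamini-Hochberg over all genes tested), and 532 genes were below that sum. TPM used the deposited lengths, which exceed the RefSeq gene span for some genes, among them *CCL16*, *CXCR3* and *IL32*. RefSeq positions were found by symbol for 73 of the 74 genes, not for *IL17C*, and the authors' gene models may differ from them.

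Members and lists were chosen with earlier results of these data known. Named members were those past the threshold, the highest in TPM in each role group, receptor or ligand partners of the first, and those with an adjusted p under 0.05 alone. *CXCL12*, *IL18R1* and some other members named beside them were picked after their values were seen. So was *IL1RL1*, which is a gene of the pathway lists and not a member. Alternatives were DESeq2 1.42.0, limma-voom (limma 3.58.1), other size factors, other filters, glmTreat (which tests for a change beyond 1 on the log2 scale), robust dispersion, another prior count, blocking by clone number, and each clone omitted in turn. Leaving out genes with only even counts, and the pathway lists under all alternatives, were added after seeing the data. Tables and figures were made in Python 3.11.15. A planned search of promoters for motifs was not run, for want of sequences.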

Additional observations from a re-analysis of the deposited data

Results flagged for a closer look

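Clone values far from the other clones of their group were found for 4 of the 62 groups of 4 clones looked at (31 genes in each depot), and chance flags about 1 in 20 groups, so such a number can arise by chance. *IL6* was at 2.16 CPM in IMF1 and between 0.997 and 1.18 CPM in the other IMF clones. *IL11* was at 1.30 CPM in the same clone and between 0.666 and 0.725 CPM in the others. *IL7R* was at 0.661 CPM in SF4 and between 0 and 0.103 CPM in the other SF clones. *IL7* was at 5.21 CPM in SF2 and between 0.103 and 0.771 CPM in the others. All 4 values rest on low counts, with 45 counts for *IL6*, 27 for *IL11*, 12 for *IL7R* and 104 for *IL7* in the clone that stood apart.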

How the results depend on the processing

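Over 20 alternatives, *CCL2*, *CCL26*, *IL3RA*, *IL6* and *OSMR* passed the threshold in all of them, and of 618 values of 31 named genes 554 kept their direction and side of the threshold, 41 fell short of it, 8 newly passed and 15 changed sign. The number of members higher in IMF was 6, and 5 to 7 with single clones left out. The number lower was 5, and it was 13 with DESeq2, 8 with limma-voom, 2 with total counts alone and 1 to 7 with single clones left out (1 without IMF3 or SF4, 3 without IMF2, IMF4 or SF3). edgeR's glmTreat, which by its construction asks for a change beyond 1 on the log2 scale, gave 0, with 5 lower at an unadjusted p under 0.05. The 17 members with an adjusted p under 0.05 were 27 with DESeq2, 5 with glmTreat and 13 to 21 with single clones left out. The 22 members whose groups did not overlap were 20 with total counts alone and 22 to 30 with single clones left out. Pathway genes higher in IMF were 10, but 11 with limma-voom, 3 with glmTreat and 9 or 10 with single clones left out. The 10 without SF2 included *CSF2RB* and not *NFKBIZ*. Pathway genes lower in IMF were 1, but 2 with DESeq2, 0 with glmTreat, 0 without genes of only even counts (*CX3CR1* is such a gene), and 1 to 3 with single clones left out (3 without SF1, 2 without SF2).

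The sign of *CXCL5* turned with limma-voom (0.03), total counts alone (0.04), the clone number as a block (0.04) and without SF1 (0.34; -0.33 to 0.34 with single clones left out). That of *IL18* turned with limma-voom (0.35), total counts alone (0.12), the block (0.25) and without SF1 (0.44) or SF4 (0.12), with -0.36 to 0.44 over single clones left out. The sign of *IL7* turned with limma-voom (0.98), the block (0.92) and without SF2 (-0.55 to 1.66 with single clones left out), that of *IL6R* without SF1 (-0.10) or SF3 (-0.06; -0.10 to 0.30), and that of *IL11* without SF1 (-0.66 to 0.05). The cause was not tested beyond the clone left out.

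The samples were not taken as paired by clone number, since no source ties the number to a steer. Correlations of the deviations of same-numbered clones were 0.0414, -0.00933, 0.0485 and 0.139. Those of differently numbered IMF and SF clones lay between -0.105 and 0.109. With the number as a replicate block, 5 members were higher and 7 lower, of which 5 and 3 were among the 6 and 5 (*CCL22*, *IL17A*, *IL17F* and *IL2RG* newly lower, *IL7R*, *IL10* and *IL9R* no longer past the threshold), 20 had an adjusted p under 0.05, and 10 pathway genes were higher and 1 lower. Depth limits *IL6*, *IL7R*, *IL3RA* and *CCL26* in SF, where counts were 0 to 15 per clone.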
